A study of Mus musculus with 18 samples.

Results

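Dppa2, Dppa3, Dppa5a, L1td1 and Gdf3 are 5 genes whose transcripts are known from the oocyte, the early embryo, pluripotent cells or the germ line. They were matched by symbol and Ensembl identifier in the tables of 3 embryonic stages, and all 5 were present in each of the 3 tables, among 8202 genes that appear in at least 1 table. The series measured polyadenylated RNA of mouse embryos and asks, by its title, which genes depend on Oct4 in vivo. Oct4 (gene Pou5f1) is a POU-domain transcription factor needed for the pluripotent inner cell mass. Oct4 -/- embryos, called null below, and Oct4 +/+ embryos, called wild type, were collected at embryonic day E2.5, at E3.75 and also at E4.5, and were all of the CD1 strain, flushed from oviducts or uteri, with no treatment in the labels. Each of the 6 groups had 3 libraries, which the design text describes as 3 embryos. The labels do not say how the null allele was made, which part of the gene it lacks or whether the mothers' oocytes could supply Oct4, nor that embryos of 1 group came from separate litters, so the p-values measure only the spread between these libraries.

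Pluripotency of the inner cell mass rests on a network of transcription factors, and the 5 genes act around it in different ways. Dppa2 is a SAP-domain chromatin protein that works as a heterodimer with Dppa4 and, in mouse embryonic stem cells, activates genes of the 2-cell stage. Dppa3 (Stella) is a maternally inherited protein that protects the maternal genome from demethylation after fertilisation and is also a marker of primordial germ cells. Dppa5a (Esg1) is a KH-domain RNA-binding protein and L1td1 an RNA-binding protein derived from the open reading frame 1 of a LINE-1 element. Gdf3 is a secreted TGF-beta family ligand that can signal through the Nodal co-receptor Tdgf1 and can inhibit BMP ligands.

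Levels are given in CPM, the authors' read counts scaled to 1000000 per library over the genes of that stage's table. The reads behind the tables ranged from 364936 in null library 1 of E4.5 to 1922432 in null library 2 of E2.5, and null libraries had the higher median depth of the 2 genotypes at each stage. Pou5f1 itself had 931.1 to 1011 CPM in null against 1723 to 2093 CPM in wild type libraries at E2.5, 220.8 to 285.7 against 380.4 to 599.9 CPM at E3.75 and 95.1 to 142.5 against 182.8 to 274.4 CPM at E4.5. It was lower in every null library than in any wild type library of its stage. Reads lie near the 3′ ends, and the labels do not say whether the null allele lacks that part. The source of the Pou5f1 reads in null libraries was not tested. Of the lineage markers checked, 16 to 18 of 20 trophectoderm genes and 8 (E2.5) to 14 (E3.75) of 19 primitive endoderm genes were in the tables. In each of the 6 groups the third library was, over the genes compared, the one nearest to a weighted average of its 2 companions. It departed from that average by no more than 1.25 times the sampling variance. For the first and second libraries the same measure ran from 1.08 to 2.67, so the ranges overlapped. For the 5 genes themselves, the third library lay between its 2 companions in 14 of 30 pairs of gene and group. Calls for the 5 genes and for other named genes are for that reason repeated below with the third libraries left out, named as the first 2 libraries.

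**Figure D1:**
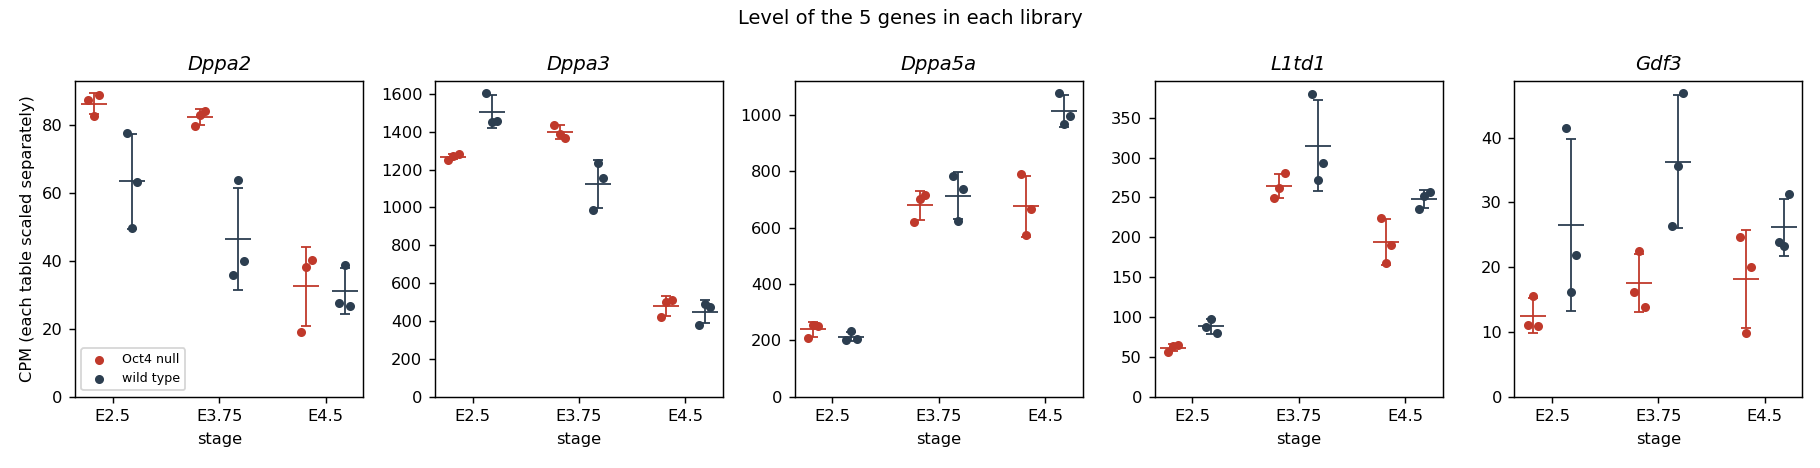
CPM of the 5 genes (vertical axes, each from 0) by stage, with 1 point per library, null in red left of wild type in dark blue, and the mean ± SD of 3 libraries as lines. Dppa2 and Dppa3 of the null libraries lie above wild type at E3.75, Gdf3 below it, and Dppa5a of the null libraries lies below wild type at E4.5.

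Dppa2 was higher in null embryos at the first 2 stages and level with wild type at the last. At E2.5 Dppa2 (ENSMUSG00000072419) had 87.38, 82.71 and 88.65 CPM in null libraries, against 77.45, 49.54 and 63.23 CPM in wild type libraries. At E3.75 the null libraries held 79.77, 82.87 and 84.16 CPM (69, 114 and 121 reads), against 35.73, 63.68 and 39.93 CPM in wild type libraries (19, 75 and 23 reads). Every null library exceeded every wild type library at both stages, and the null libraries lay closer together. In whole embryos, a change in the number of cells that express a gene and a change in RNA per cell cannot be told apart. The log2 fold change of Dppa2, null minus wild type on the log2(CPM + 1) scale, was 0.46 at E2.5 (SE 0.19, limma adjusted p = 0.198), which did not pass the threshold of 0.05. At E3.75 Dppa2 rose, with a log2 fold change of 0.86 (SE 0.20, 95% interval 0.43 to 1.28, limma adjusted p = 0.0113). This call held in 5 of 6 fits that left out 1 library and was lost without wild type library 3 (adjusted p = 0.0591), with the first 2 libraries (0.76, adjusted p = 0.139) and with all 18 libraries in 1 fit (adjusted p = 0.058).

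At E4.5 Dppa2 stood at 19.18, 38.03 and 40.21 CPM in null libraries against 27.62, 38.78 and 26.65 CPM in wild type libraries. The groups overlapped, and the lowest value, in null library 1, rested on 7 reads. The log2 fold change was 0.01 (95% interval -0.68 to 0.71, limma adjusted p = 0.985). The difference of the genotype effects, E4.5 minus E3.75, was -0.84 (SE 0.36) and did not pass (limma adjusted p = 0.283).

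Dppa4, the partner of Dppa2 and its immediate neighbour on chromosome 16, overlapped between genotypes at each stage. Dppa4 had 79.77, 101 and 100.9 CPM in null libraries against 95.9, 71.32 and 102.4 CPM in wild type libraries at E3.75. The log2 fold changes of Dppa4 were -0.02 at the first stage, 0.07 at the second and -0.07 at the last (limma adjusted p of 0.963, 0.849 and 0.896). The ratio of Dppa2 to Dppa4 within a library was 0.559 to 0.662 in null against 0.391 to 0.514 in wild type at E2.5, and 0.82 to 1 in null against 0.372 to 0.893 in wild type at E3.75. The two-sided exact permutation test of this log2 ratio gave p = 0.1 at E2.5, which is the smallest p that 3 against 3 libraries allow, and p = 0.3 at E3.75 and 0.8 at E4.5. Morc1, a germ line chromatin ATPase and the nearest measured gene on the other side of Dppa2, fell at E3.75 to 12.72, 31.26 and 15.3 CPM in null libraries, against 52.65, 38.21 and 43.4 CPM in wild type libraries (log2 fold change -1.23, limma adjusted p = 0.0113; with the first 2 libraries -1.12, adjusted p = 0.0741). Neighbours on chromosome 16 thus stood at 0.07, 0.86 and -1.23 on the log2 scale at E3.75.

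Dppa3 stood on opposite sides of wild type at E2.5 and E3.75. At E2.5 Dppa3 (ENSMUSG00000046323) had 1252, 1271 and 1281 CPM in null libraries, against 1606, 1453 and 1456 CPM in wild type libraries. At E3.75 it had 1437, 1386 and 1365 CPM in null libraries, against 985.4, 1233 and 1156 CPM in wild type libraries. All null libraries were below all wild type libraries at E2.5 and above them at E3.75. The log2 fold change was -0.25 at E2.5 (SE 0.07, limma adjusted p = 0.0926), short of the threshold, and Dppa3 rose at E3.75 by 0.32 (SE 0.08, 95% interval 0.15 to 0.48, limma adjusted p = 0.0141). The call at E3.75 held in 4 of 6 fits that left out 1 library, and was lost without null library 1 (adjusted p = 0.0754), without wild type library 3 (0.0527), with the first 2 libraries (0.36, adjusted p = 0.0971) and with all 18 libraries in 1 fit (0.0717).

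The difference of the Dppa3 genotype effects, E3.75 minus E2.5, was 0.56 (SE 0.14) and passed over the 5430 genes present in all 3 tables (limma adjusted p = 0.0489), where 1.12% of genes passed. It passed in 5 of 18 fits that left out 1 library, with adjusted p between 0.0271 and 0.15, and did not pass with the first 2 libraries (0.63, adjusted p = 0.876). At E4.5 Dppa3 was low and overlapped between genotypes, with 419.3, 502.8 and 513 CPM in null libraries against 381.2, 492.5 and 476 CPM in wild type libraries (log2 fold change 0.09, limma adjusted p = 0.757).

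Gdf3, which lies next to Dppa3 on chromosome 6, was low in all libraries, with 9 to 42 reads. At E2.5 Gdf3 (ENSMUSG00000030117) had 11.01, 15.61 and 10.95 CPM in null libraries, against 41.45, 16.13 and 21.89 CPM in wild type libraries. At E3.75 the null libraries held 16.18, 22.54 and 13.91 CPM (14, 31 and 20 reads), against 26.33, 35.66 and 46.87 CPM in wild type libraries (14, 42 and 27 reads). Every null library was below every wild type library at both stages, by a narrow margin at E2.5. Gdf3 fell at E3.75, with a log2 fold change of -1.0 (SE 0.29, 95% interval -1.59 to -0.40, limma adjusted p = 0.0365), and had -0.93 at E2.5 (SE 0.37, limma adjusted p = 0.187). The call at E3.75 was lost in 4 of 6 fits that left out 1 library (without null library 1, adjusted p = 0.104, null library 3, 0.157, wild type library 2, 0.0658, or wild type library 3, 0.185), with the first 2 libraries (-0.65, adjusted p = 0.518) and with all 18 libraries in 1 fit (0.119). edgeR called Gdf3 there (adjusted p = 0.0239), and DESeq2 gave it no adjusted p (unadjusted p = 0.00794). At E4.5 the groups overlapped, at 24.66, 9.889 and 20.1 CPM in null libraries and 23.94, 23.27 and 31.24 CPM in wild type libraries (log2 fold change -0.58, limma adjusted p = 0.444).

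On chromosome 6 the adjacent genes Gdf3 and Dppa3 therefore had opposite signs at E3.75. Nanog, a transcription factor of the epiblast, is the nearest measured gene beyond Dppa3, with 4 genes between them in the RefSeq gene order. Nanog rose at E3.75 (log2 fold change 0.73, limma adjusted p = 0.000566, and 0.00304 with the first 2 libraries) as Dppa3 did, while at E2.5 its log2 fold change was 0.09 and at E4.5 it was -0.19. Mfap5, the nearest measured gene before Gdf3, was in the E2.5 table and had a log2 fold change of 0.17 there.

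Dppa5a had its largest difference between genotypes at E4.5, where the call depended on the test. At that stage Dppa5a (ENSMUSG00000060461) had 789.2, 574.3 and 665.6 CPM in null libraries, against 1077, 967.5 and 996 CPM in wild type libraries. All null libraries were below all wild type libraries, and the mean was 676.4 ± 107.8 CPM in null against 1014 ± 56.95 CPM in wild type libraries (SD, n = 3 each). The log2 fold change was -0.59 (SE 0.12, 95% interval -0.85 to -0.34) and did not pass in limma (adjusted p = 0.125), at a stage where limma called 0 of 6545 genes. It passed in edgeR's quasi-likelihood test (adjusted p = 0.0264), in DESeq2 (0.00212), with all 18 libraries in 1 fit (0.0121) and in 1 of 6 fits that left out 1 library, the one without null library 1, the shallowest (-0.71, adjusted p = 0.0108). The adjusted p over those 6 fits reached 0.478, and Dppa5a was not called with the first 2 libraries (-0.60, adjusted p = 0.832).

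At the earlier stages Dppa5a overlapped between genotypes. It had 210, 255.9 and 251.3 CPM in null libraries against 201.8, 232.7 and 205.9 CPM in wild type libraries at E2.5 (log2 fold change 0.16, limma adjusted p = 0.481). At E3.75 it had 619.6, 703 and 715 CPM in null libraries against 784.2, 623.2 and 736 CPM in wild type libraries (log2 fold change -0.07, limma adjusted p = 0.706). The difference of the genotype effects, E4.5 minus E2.5, was -0.75 (SE 0.16) and passed (limma adjusted p = 0.0236), where 1.01% of the 5430 shared genes passed. It passed in 11 of 18 fits that left out 1 library, with adjusted p between 0.00931 and 0.0901, and not with the first 2 libraries (-0.70, adjusted p = 0.655).

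Reads of Dppa5a can be shared with near-identical copies elsewhere in the genome. The 59 coding bases of its last exon, bases 377 to 435 of a transcript of 619 bases, are therefore shown beside the matching bases of 2 processed pseudogenes. Reads made next to the poly(A) tail can also lie after base 435, outside this stretch. Capitals mark bases that differ from Dppa5a, and the sequences are from the GENCODE M21 transcripts on GRCm38, not the mm9 build that the submitters' processing notes name. Dppa5a is at chr9:78367236-78367294 on the minus strand, exon 3, Gm6083 at chr5:29538451-29538509 on the plus strand and Gm6798 at chrX:8654766-8654824 on the plus strand.
Dppa5a: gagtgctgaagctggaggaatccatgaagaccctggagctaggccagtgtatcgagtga
Gm6083: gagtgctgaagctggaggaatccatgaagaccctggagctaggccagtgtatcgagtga
Gm6798: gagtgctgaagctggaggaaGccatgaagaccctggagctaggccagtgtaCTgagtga
Over this stretch Gm6083 had 0 differences from Dppa5a and Gm6798 had 3, so a read that lies within it cannot be told apart between Dppa5a and Gm6083.

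Of 7 copies of Dppa5a with at least 90% identity over 300 bases, 4 were in the tables, namely Gm6083 (96.9% over 357 bases), Pigp (95.9% over 417 bases), Gm6798 (95.8% over 360 bases) and Gm15310 (93% over 372 bases). Pigp is a protein-coding gene of GPI anchor synthesis, of which 1 transcript ends in an exon that overlaps Gm15310 on chromosome 16. The matches of the 3 pseudogenes to the Dppa5a transcript end at base 435. That of Pigp runs from base 197 to base 613, past the stretch shown. At E4.5 Gm6083 had 186.3, 155.2 and 183.2 CPM in null libraries, against 246.8, 234.6 and 253.6 CPM in wild type libraries. Each of the 4 copies was lower in every null library than in any wild type library at E4.5, with log2 fold changes of -0.49 for Gm6083, -0.49 for Pigp, -0.41 for Gm6798 and -0.39 for Gm15310 beside -0.59 for Dppa5a. None of the 4 passed in limma there (adjusted p between 0.169 and 0.276). With the reads of the 3 pseudogenes, but not those of Pigp, added to Dppa5a, the level at E4.5 was 1102 ± 139.5 CPM in null against 1591 ± 76.21 CPM in wild type libraries (SD, n = 3 each; log2 fold change -0.54, limma adjusted p = 0.116).

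**Figure D2:**
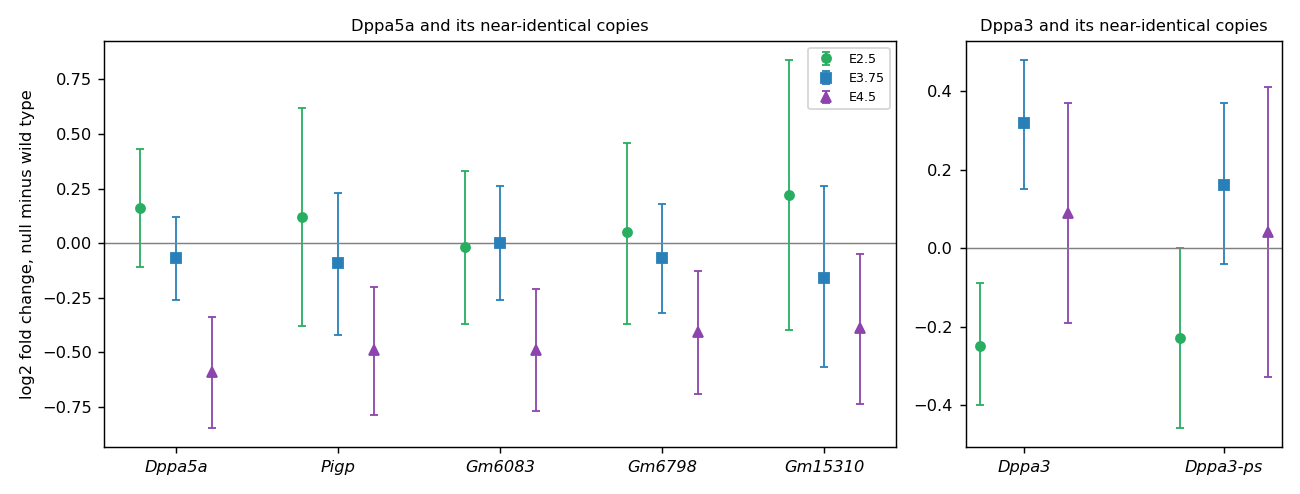
Log2 fold change, null minus wild type, of Dppa5a and its 4 near-identical copies in the tables (left) and of Dppa3 and Dppa3-ps (right), with limma's 95% interval, at 3 stages. All 5 genes of the left panel are negative at E4.5, between -0.59 and -0.39.

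Dppa3 has 1 copy in the tables, the pseudogene Dppa3-ps (98.2% identity over 451 bases). It stood at 289.3, 317.3 and 317 CPM in null libraries against 401.4, 342.2 and 343.7 CPM in wild type libraries at E2.5, and at 352.6, 328.6 and 364.5 CPM against 308.4, 320.1 and 303.8 CPM in wild type libraries at E3.75. Its null libraries were all below wild type at E2.5 and all above at E3.75, as those of Dppa3 were, with log2 fold changes of -0.23 and 0.16 that did not pass (limma adjusted p = 0.24 and 0.339). With both genes summed, the log2 fold change at E3.75 was 0.28 (limma adjusted p = 0.0156). The 6 copies of Dppa2 and 1 of L1td1 were in no table, and Gdf3 had 0 copies at this identity, so no count of a copy could be set beside these 3 genes.

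L1td1 was lower in the mean of null libraries at each stage, and no stage passed. L1td1 (ENSMUSG00000087166) had 56.54, 63.98 and 64.66 CPM in null libraries against 87.27, 97.92 and 79.44 CPM in wild type libraries at E2.5. At E3.75 it had 249.7, 262.4 and 280.3 CPM in null libraries against 379.9, 271.7 and 293.4 CPM in wild type libraries. At E4.5 it had 224.7, 168.1 and 189.9 CPM in null libraries against 235.7, 252.1 and 257.3 CPM in wild type libraries. The groups did not overlap at E2.5 and E4.5 and overlapped at E3.75, where wild type library 1 was high. Log2 fold changes were -0.51 (SE 0.16, limma adjusted p = 0.124) at E2.5, -0.24 (SE 0.12, adjusted p = 0.237) at E3.75 and -0.36 (SE 0.14, adjusted p = 0.251) at E4.5.

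The promoter of L1td1 is the only one of the 5 with an entry in the RefSeq promoter table used here (GRCm38.p6, chr4:98726504-98726753, plus strand). It is shown beside values that were below wild type in the mean at every stage, with CpG dinucleotides in capitals.
L1td1: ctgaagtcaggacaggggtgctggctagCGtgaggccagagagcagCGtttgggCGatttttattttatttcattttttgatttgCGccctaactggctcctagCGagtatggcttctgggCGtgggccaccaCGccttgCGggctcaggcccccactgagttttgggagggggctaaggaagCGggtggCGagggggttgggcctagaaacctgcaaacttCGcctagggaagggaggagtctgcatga
These 250 bases upstream of the start hold 11 CpG dinucleotides at a GC content of 57.6%. Of all windows of that length, 35.6% held 11 or more, and the median was 6. The POU octamer ATGCAAAT was found on either strand in 1.6% of 32851 windows and its core ATGCAAA, which the octamer contains, in 4.12%. Neither string was in the L1td1 window, which says only that these letters are not in these bases.

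**Figure D3:**
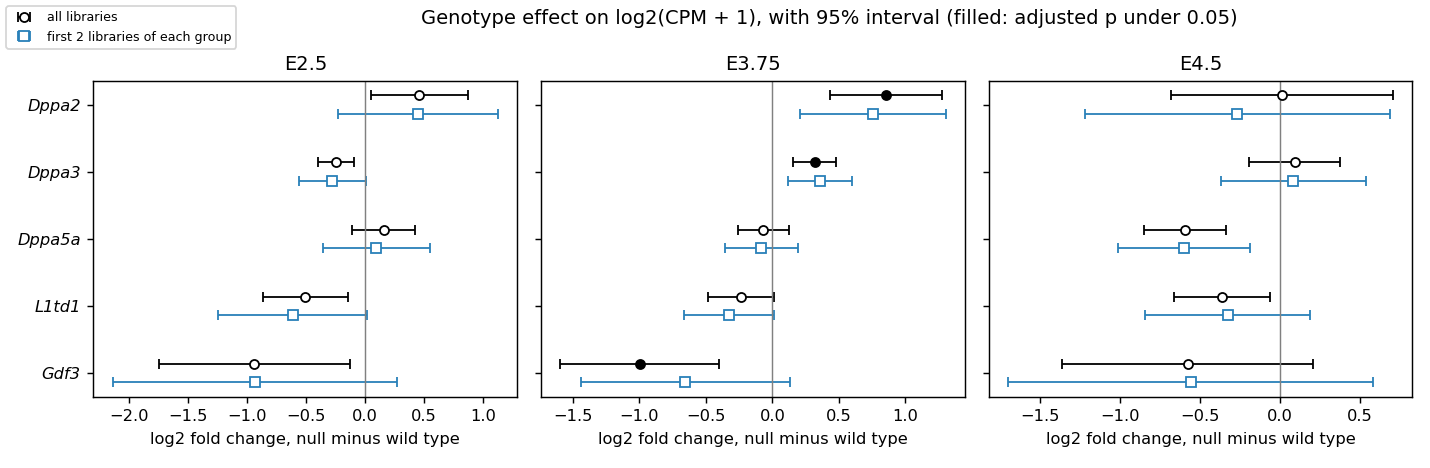
Log2 fold change of the 5 genes, null minus wild type on log2(CPM + 1), at each stage, with limma's 95% interval, from all libraries (circles) and from the first 2 libraries of each group (squares). Filled symbols, Dppa2 and Dppa3 above 0 and Gdf3 below 0 at E3.75 with all libraries, mark an adjusted p under 0.05.

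Counted together, 0 of the 5 genes passed at E2.5, 3 at E3.75 (Dppa2 and Dppa3 higher, Gdf3 lower) and 0 at E4.5 in limma. Limma's calls made up 0.593% of all genes at E2.5. They made up 8.2% at E3.75, with 3.6% higher and 4.6% lower, and 0.0% at E4.5. At an unadjusted p under 0.05 the members numbered 4 at E2.5, where 20.4% of all genes were under it, 3 at E3.75, where 22.8% were, and 2 at E4.5, where 15% were. edgeR called 0 members at E2.5 (2.53% of genes), the same 3 at E3.75 (8.3%) and 1, Dppa5a, at E4.5 (0.642%). Of the genes to which DESeq2 gave an adjusted p, it called 4.49% at E2.5 with 0 members, 10.5% at E3.75 with 2 members (Dppa2 and Dppa3, while Gdf3 had no adjusted p), and 4.29% at E4.5 with 1 member, Dppa5a. The difference of effects between E4.5 and E3.75 passed for 0 members and 0.0921% of the shared genes in limma. At an unadjusted p under 0.05 there were 2 members for that difference, where 14.3% of the shared genes were under it. With the first 2 libraries limma called 0 members at E3.75, where it called 2.33% of all genes. Of the calls over all genes at E3.75, 239 were higher and 306 lower in null libraries, and with TMM factors 287 were higher and 216 lower, while the 3 members kept direction and call.

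Libraries of the 2 genotypes did not overlap for 4 of the 5 genes at E2.5 (Dppa2 above, Dppa3, L1td1 and Gdf3 below), for 3 at E3.75 (Dppa2 and Dppa3 above, Gdf3 below) and for 2 at E4.5 (Dppa5a and L1td1 below). Over all genes the share without overlap was 27.8% at E2.5 (13.6% above and 14.1% below), 27.2% at E3.75 (11.4% above and 15.7% below) and, at E4.5, 22.2% (12.2% above and 9.99% below). With 5 genes, these counts are given as a description.

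Across stages the 5 genes followed different courses in both genotypes, on CPM recomputed over the 5430 genes common to the tables, which is a description because the tables were scaled separately. Dppa3 at E4.5 was 0.378 times its level at E2.5 in null and 0.3 times in wild type embryos, and the libraries of the 2 stages did not overlap in either genotype. Dppa2 at E4.5 was 0.377 times its E2.5 level in null and 0.49 times in wild type embryos. In null embryos Dppa2 overlapped between E2.5 and E3.75 and was lower at E4.5, whereas in wild type embryos each stage overlapped the next.

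Dppa5a and L1td1 were higher after E2.5. Dppa5a at E3.75 was 2.8 times its E2.5 level in null and 3.33 times in wild type embryos. From E3.75 to E4.5 the ratio was 1.01 in null embryos, with overlapping libraries, and 1.43 in wild type embryos, without overlap. L1td1 at E3.75 was 4.23 times its E2.5 level in null and 3.55 times in wild type embryos, and at E4.5 it was 0.746 and 0.795 times the E3.75 level in null and wild type embryos, with no overlap in either. Gdf3 libraries overlapped between all stages in both genotypes.

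Set among other genes of the epiblast and pluripotency list, the 5 genes were spread across the range of that list. Of 31 measured genes at E3.75, 2 rose and 10 fell, with a median log2 fold change of -0.34 against -0.04 over all genes. Of all genes, 3.6% rose and 4.6% fell at that stage. Upp1, a uridine phosphorylase, had 232.4, 285 and 247.6 CPM in null libraries against 641.2, 456.8 and 560.7 CPM in wild type libraries (log2 fold change -1.11, limma adjusted p = 4.1e-06). Spp1, the secreted matrix protein osteopontin, fell by 1.13 on the log2 scale (limma adjusted p = 0.00346), and Pou5f1 by 0.96. Nanog and Zfp281, a zinc finger factor, were the 2 that rose, as Dppa2 and Dppa3 did, and Gdf3 stood with the genes that fell. With the first 2 libraries 5 of these 12 calls remained (Upp1, Nanog, Spp1, Tdgf1 and Pou5f1), and Zfp281 was not called (adjusted p = 0.173).

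At E2.5 the list had 1 gene higher (Fbxo15, log2 fold change 0.90, not called with the first 2 libraries at an adjusted p of 0.0551) and 1 lower (Pou5f1) of 25 measured, with a median of -0.02 against -0.02 over all genes. Limma called 0.593% of all genes there, in either direction. At E4.5 limma called 0 of 31, as it called 0 of all genes, against 985 genes at an unadjusted p under 0.05, 42 in edgeR and 112 in DESeq2. The median of the list there was -0.27, against 0.06 over all genes, and 14 of 31 genes were lower in every null library than in any wild type library, while 9.99% of all genes were. Dppa5a (-0.59), Gdf3 (-0.58) and L1td1 (-0.36) were below that median at E4.5, and Spp1 (-1.27, limma adjusted p = 0.0611) was the lowest of the list.

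**Figure D4:**
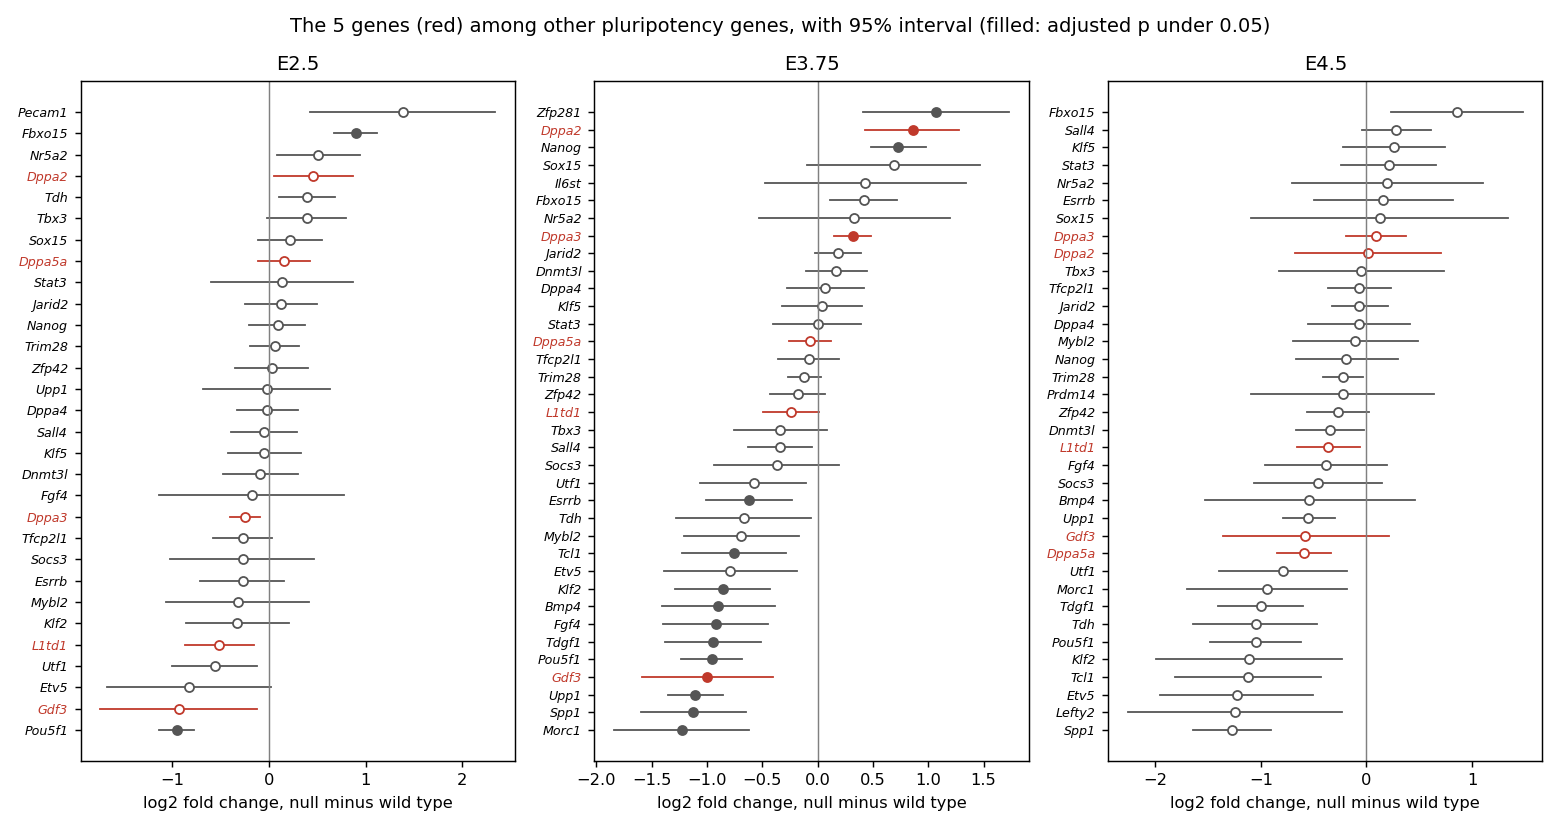
Log2 fold change, null minus wild type, with limma's 95% interval, of the 5 genes (red) and of listed epiblast and pluripotency genes in the tables (grey), ordered by value at each stage, with filled points at an adjusted p under 0.05. At E3.75 Dppa2 (0.86) and Dppa3 (0.32) are among the genes above 0 and Gdf3 (-1.0) is among the lowest.

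Genes of the pathways in which the members act were few in the tables. Of the 31 genes of the Nodal, activin and BMP signalling list around Gdf3, 6 were measured at E3.75. Of these 6, 0 rose and 2 fell, where 3.6% of all genes rose and 4.6% fell. Tdgf1, the Nodal co-receptor, had 41.62, 58.88 and 57.73 CPM in null libraries against 144.8, 73.86 and 97.21 CPM in wild type libraries (log2 fold change -0.95, limma adjusted p = 0.00724). Bmp4, a BMP ligand, averaged 21.5 ± 2.41 CPM in null against 41.1 CPM in wild type libraries (log2 fold change -0.90, limma adjusted p = 0.0256). With the first 2 libraries Tdgf1 was called (adjusted p = 0.00856) and Bmp4 was not (0.202). The list's median was -0.45 at E3.75, and 0 of 5 genes passed at E2.5 and 0 of 7 at E4.5. At E4.5 Tdgf1 was again below wild type in all null libraries, with 41.1, 41.84 and 46.16 CPM against 97.6, 79.5 and 85.45 CPM in wild type libraries (log2 fold change -1.0, limma adjusted p = 0.125).

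Of 23 listed genes of the 2-cell stage around Dppa2, only 4 were measured at E3.75. Of these 4, 2 rose and 0 fell, where 3.6% of all genes rose and 4.6% fell. So few genes do not stand for the list, and the count is a description. Pramel6, which limits DNA methylation in pluripotent cells, had 724.8, 690.6 and 710.2 CPM in null libraries against 477.6, 475.5 and 439.2 CPM in wild type libraries (log2 fold change 0.61, limma adjusted p = 8.57e-05). Sp110, a nuclear body protein, had 36.99, 23.26 and 24.34 CPM in null libraries against 7.522, 11.89 and 13.89 CPM in wild type libraries (log2 fold change 1.28, limma adjusted p = 0.0196). The null libraries of both genes were above all wild type libraries. With the first 2 libraries Pramel6 was called (adjusted p = 0.00979) and Sp110 was not (0.0511). Pramel6 had log2 fold changes of 0.38 at E2.5 (limma adjusted p = 0.127) and 0.68 at E4.5 (adjusted p = 0.143). Its mean in wild type libraries was 363.2 CPM at E2.5, 464.1 CPM at E3.75 and 572.8 CPM at E4.5, with each stage scaled separately. Its level was thus not confined to the earliest stage.

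Lists around Dppa3, Dppa5a and L1td1 held single calls. For comparison, the share of the whole table with a limma call, higher or lower, was 8.2% at E3.75 and 0.593% at E2.5. A single call in so short a list is given as a description and does not set the list apart from other genes. Of the DNA methylation list around Dppa3, Hdac2, a histone deacetylase, fell by 0.68 at E2.5 (1 of 10 measured, limma adjusted p = 0.044) and Mbd3, a methyl-CpG-binding domain protein of the NuRD complex, fell by 0.35 at E3.75 (1 of 9, adjusted p = 0.0371). Of the germ line list, Alpl, an alkaline phosphatase, fell by 0.98 at E3.75 (1 of 3 measured, limma adjusted p = 0.0117). Of the oocyte and RNA-binding list, Khdc3, a subunit of the subcortical maternal complex, had 1739, 1777 and 1879 CPM in null libraries against 2277, 2500 and 2271 CPM in wild type libraries at E3.75 (1 of 8 measured, log2 fold change -0.38, limma adjusted p = 0.000738). With the first 2 libraries Alpl (adjusted p = 0.0217) and Khdc3 (0.00707) were called, and Hdac2 (0.667) and Mbd3 (0.264) were not. Ooep, of the same complex and the immediate neighbour of Dppa5a on chromosome 9, had log2 fold changes of -0.23 at the first stage, -0.05 at the second and 0.24 at the last, where its null libraries were all above wild type, opposite to Dppa5a (limma adjusted p = 0.381).

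Markers of other cell types and depth moved with genotype at some stages. At E3.75, where Dppa2, Dppa3 and Gdf3 passed, the summed level of 14 primitive endoderm genes was 2131 to 2257 CPM in null against 1963 to 2044 CPM in wild type libraries. Dab2 weighed heavily in this sum, with a mean of 986.2 CPM in null against 629.5 CPM in wild type libraries. By gene, the list's median log2 fold change was -0.81, against -0.04 over all genes, with 2 genes called higher and 6 lower. Limma called 3.6% of all genes higher and 4.6% lower at E3.75, which also applies to the marker lists below at that stage. Null libraries were all below wild type for 7 of the 14 genes and all above for 2, where 15.7% of all genes were below and 11.4% above. The 18 trophectoderm genes summed to 10060 to 11400 CPM in null against 11280 to 12330 CPM in wild type libraries, with 2 higher and 3 lower and a median of -0.08. The 4 maternal blood, oviduct and cumulus genes summed to 201.4 to 500.6 CPM in null and 163.6 to 198.7 CPM in wild type libraries at that stage, and the haemoglobin genes Hbb-bs and Hba-a1 rose (2 of 4), highest in null library 1. At E4.5, where Dppa5a was lower, 13 primitive endoderm genes summed to 1913 to 2335 CPM in null against 2179 to 2267 CPM in wild type libraries. Their median log2 fold change was -0.61, against 0.06 over all genes, and 0 of them were called. Null libraries were all below wild type for 7 of the 13 genes and all above for 2, where 9.99% of all genes were below and 12.2% above. At that stage 18 trophectoderm genes summed to 18820 to 21120 CPM in null against 19740 to 21850 CPM in wild type libraries, and 5 maternal genes to 273.8 to 1241 against 366.5 to 432.4 CPM. Of these marker genes, 0 were at 0 reads in any library at E3.75 and 1 primitive endoderm gene was at 0 in some library at E4.5. Median depth was 1375610 reads in null against 576078 reads in wild type libraries at E3.75, and 1314657 against 543033 reads at E4.5. The part of these markers in the results for the 5 genes was not tested. With reads thinned to equal depth, the log2 fold changes at E3.75 were 0.85 for Dppa2, 0.31 for Dppa3 and -1.15 for Gdf3 (limma adjusted p of 0.0299, 0.024 and 0.0433).

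By the likeness of deviations from the stage mean over 18 libraries, among 4016 genes with at least 20 CPM at each stage, the gene most like Dppa2 was Ermp1 (Pearson r = 0.91), followed by Fkbp6 (0.89) and Manf (0.88). For Dppa3 these were F11r (0.93), Coil (0.87) and Gm21988 (0.87), and for Dppa5a Gm11273 (0.88), Ppp6r3 (0.84) and Brd9 (0.84). L1td1 was most like Gng2 (0.89), Anxa2 (0.89) and Msn (0.88), and Gdf3 most like Fth1 (0.90), Ezr (0.85) and Stard7 (0.84). These values are a description over libraries that share genotype and depth, and they carry no test.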

How the data were processed

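Embryo RNA was primed with oligo(dT) and amplified next to the poly(A) tail, per the labels' protocols. The authors deposited CPM in 1 table per stage. edgeR and the mm9 build are named by the submitters' processing notes, with the aligner not given in the sources used here. Columns sum to 1000000 within a table, and each gene reached about 10.3 CPM in 3 libraries. All 3 wild type columns of E4.5 share a name and are listed in column order.

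The 5 genes and all gene lists were chosen with earlier results of these data known. limma 3.58.1 was fitted to log2(CPM + 1) per stage, as the files hold CPM and not raw counts, two-sided, with Benjamini-Hochberg adjustment over all genes and a threshold of 0.05. Differences between stages were fitted over 18 libraries. edgeR 4.0.16 and DESeq2 1.42.0 ran on whole reads recovered from the CPM (121650 of 121650 values, 100%, within 0.01 reads). Listed genes are named where they passed, up to 4 per list and stage by smallest p, or 2 where none passed; Zfp281 was named after its values were seen. The per-stage fit was also run on simulated reads, with the outcome not given here. Alternatives were other scalings, pseudocounts of 0.1 and 5, a CPM minimum of 10, libraries left out, a block, thinning and pseudogene reads added, the last chosen after seeing the data.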

Additional observations from a re-analysis of the deposited data

Results flagged for a closer look

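The test of the difference between stages in the genotype effect on Dppa3 passed narrowly. The log2 fold change, null minus wild type, was -0.25 at E2.5 and 0.32 at E3.75, a difference of 0.56 (SE 0.14, limma adjusted p = 0.0489). All 3 null libraries lay below the 3 wild type libraries at E2.5 and above them at E3.75. The difference passed in 5 of 18 fits that left out 1 library, and did not pass at a pseudocount of 0.1 (adjusted p = 0.0518) or with CPM over the shared genes (0.0509).

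The effect on Dppa5a also differed, between E2.5 (0.16) and E4.5 (-0.59), by -0.75 (SE 0.16, limma adjusted p = 0.0236). Its null libraries overlapped wild type at E2.5 and were all below wild type at E4.5. This difference passed in 11 of 18 fits that left out 1 library. Neither difference passed with the first 2 libraries of each group (adjusted p = 0.876 for Dppa3 and 0.655 for Dppa5a). The third libraries, which over the genes compared lay close to a mix of the other 2, enter both calls, and their part in them was not tested further.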

How the results depend on the processing

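With the first 2 libraries, log2 fold changes at E3.75 were 0.76 for Dppa2, 0.36 for Dppa3 and -0.65 for Gdf3, none called (0 members). The differences between stages that passed were then 0.63 for Dppa3 and -0.70 for Dppa5a, not called, Dppa2 at E4.5 turned to -0.27, and differences that had not passed turned to 0.00 for L1td1 (E4.5 minus E3.75) and 0.28 for Gdf3 (E3.75 minus E2.5). With all 18 libraries in 1 fit, Dppa2 (0.86), Dppa3 (0.32) and Gdf3 (-1.0) lost their calls at E3.75 (0 members) and Dppa5a at E4.5 (-0.59) gained one (1 member), as it did in edgeR (-0.66) and DESeq2 (-0.65), 1 member each. Dppa2 at E4.5, 0.01, was -0.04 with TMM factors, -0.03 with DESeq2 size factors and -0.05 with thinned reads. The Dppa3 difference lost its call at a pseudocount of 0.1 (0.56, adjusted p = 0.0518) and with CPM over the shared genes (0.55, adjusted p = 0.0509).

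Genes called at E2.5, 42, were 99 with TMM factors, 93 with DESeq2 size factors, 179 in edgeR, 238 in DESeq2, 1 with the first 2 libraries and 139 in the 18-library fit. At E3.75, 545, they were 307 in DESeq2, which left 3738 genes, Gdf3 among them, without an adjusted p, 155 with the first 2 libraries and 213 in the 18-library fit. At E4.5, 0, they were 1 at a pseudocount of 5, 2 with TMM factors, 42 in edgeR, 112 in DESeq2, 221 in the 18-library fit and 7 with thinned reads. The 18-library fit tested 5430 genes.

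Leaving out 1 library, the log2 fold change of Dppa2 ran from 0.30 to 0.61 at E2.5, 0.69 to 1.10 at E3.75 and -0.17 to 0.35 at E4.5, that of Dppa3 from -0.27 to -0.20, 0.22 to 0.39 and -0.02 to 0.18, and that of Gdf3 from -1.22 to -0.57 at E2.5, -1.20 to -0.80 at E3.75 and -0.83 to -0.21 at E4.5. L1td1 ran from -0.58 to -0.43 at E2.5, -0.34 to -0.10 at E3.75 and -0.47 to -0.26 at E4.5. Dppa5a ran from -0.16 to 0.00 at E3.75 and -0.71 to -0.48 at E4.5. Differences between stages ran from 0.47 to 0.63 for Dppa3 (E3.75 minus E2.5), -0.87 to -0.64 for Dppa5a (E4.5 minus E2.5), and for Gdf3 from -0.43 to 0.23 (E3.75 minus E2.5) and -0.01 to 0.72 (E4.5 minus E2.5). Calls gained at E2.5 were those of Dppa2 without wild type library 1 (adjusted p = 0.0487), and of Dppa3 (0.0304) and Gdf3 (0.0398) without wild type library 2. Genes called ran from 1 to 773 at E2.5, 209 to 652 at E3.75 and 0 to 120 at E4.5, and members called from 0 to 2, 0 to 3 and 0 to 1. The cause of these changes was not tested, except that leaving libraries out gives fewer samples.

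Deviations of same-numbered libraries had correlations of 0.03, 0.13 and -0.00 at E2.5 and -0.03, -0.05 and 0.01 at E3.75. Differently numbered libraries ran from -0.09 to 0.08 at E2.5. With 3 libraries per group these weak correlations cannot tell whether the numbers pair libraries. A replicate block called 30 genes at E2.5 and 438 at E3.75 and left the members called at 0 and 3. No paired analysis was possible at E4.5 because the wild type columns carry no numbers. Low reads limit Gdf3 (9 to 42 per library), Dppa2 at E4.5 and the wild type level of Dppa2 at E3.75 (19, 75 and 23 reads).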
